A study of Mus musculus with 2 samples.

Results

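Chemokines are small secreted proteins that direct the movement of leukocytes, and their receptors sit on the cells that respond. The genes described here were 46 of the 21938 protein-coding mouse genes in the GENCODE M21 annotation of mm10, chosen because their symbol is Ccl, Cxcl, Ccr or Cxcr followed by a number. The rule leaves out symbols with a letter after the number, such as Ccl27a (log2 ratio -0.06), and Cxcl11, which is not protein-coding in that annotation. The members were 19 CC ligands, 12 CXC ligands, 9 CC receptors and 6 CXC receptors. Each gene was given the open chromatin regions that overlap its body or the 2 kb upstream of it. A region counts as shared where peaks of both libraries overlap, and 38 of the 46 genes had at least 1 shared region, all with at least 100 counts over both libraries. The other 8 were Ccl5, Ccl8, Ccl11, Ccl19, Ccl22, Ccl26, Ccr8 and Cxcr6.

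A chemokine binds a G-protein-coupled receptor, the cell then orients in the ligand gradient, and the letters C and X name the spacing of the first conserved cysteines of the ligand. Macrophages make many CC ligands, among them those that bind Ccr1 or Ccr2 and bring in further monocytes, while epithelia make CXC ligands that bring in neutrophils or lymphocytes. In the mammary gland, macrophages lie along the ducts, and the epithelium is a basal layer around luminal progenitor and hormone-sensing luminal cells. Many chemokine genes stand in tandem in the genome, and the accessibility of a gene says where chromatin is open, not how much RNA or protein is made.

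Single-nucleus ATAC-seq, which counts the insertions of a transposase into open chromatin, was run on mammary organoids of C57BL/6J mice. Organoids of both groups carried the same alleles, given in the labels as shTRPS1.34 ki/+ and CAG-rtTA3 tg/+, a hairpin RNA against Trps1 in the Col1a1 locus and the transactivator that turns it on. The DOX group received doxycycline at 0.1 µg/ml and the EtOH group the solvent ethanol, each for 7 days. The labels were followed on the genotype, although a legend of the study names wild-type mice. Doxycycline and the hairpin came together, so their parts in any difference cannot be told apart. The CAG promoter is active in nearly every cell type, the organoids came from an unsorted digest of the gland that can carry immune and stromal cells, and cells of several mice were mixed, 4 by the design text and fewer by the methods of the study. With 1 library per group no comparison could be tested against replicates, no p-value is given, and each interval is a 95% interval that covers counting error only. The comparison of the groups asked how chromatin accessibility responds to the loss of Trps1, a repressor of the GATA family.

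The DOX library held 3071 nuclei with 224762118 counts and a median of 75195 counts per nucleus, and the EtOH library held 3104 nuclei with 211963715 counts and a median of 66701. Of 275294 merged regions 174940 (63.5%) were shared, and levels are given as counts per 1000000 counts of the library, or of the named nuclei, in shared regions (CPM). A total of 23 barcodes occurred in both libraries. The 51 shared regions of Trps1 itself took 223 CPM in DOX and 160 CPM in EtOH, a value that says nothing of the knockdown, since a hairpin acts on mRNA.

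Nuclei of both libraries were clustered without the regions of chemokine genes. Of the 8 clusters, clusters 3 and 4 were immune-like, open at Ptprc, Csf1r and C1qb, with all 8 immune markers at least 2-fold above the other nuclei in both. They held 1282 of 3071 DOX nuclei (41.7%, 40.0 to 43.5%) and 283 of 3104 EtOH nuclei (9.12%, 8.13 to 10.2%), and 39% and 7.11% of the counts in shared regions. Nuclei in them had a median of 68588 counts in shared regions in DOX and 52104 in EtOH, against 72216 and 65482 for the others. Markers of other cell types were compared in the same way, immune-like against other nuclei in both libraries. At least 2-fold higher were 1 of 4 T-cell markers (Cd3d, with Cd3e and Cd3g lower), the B-cell marker Ms4a1, 2 of 3 neutrophil markers (Csf3r and Mmp8, with S100a8 near 0 on the log2 scale) and 1 of 3 dendritic cell markers (Flt3). Among stromal markers these were 2 of 4 endothelial (Cdh5 and Kdr) and 1 of 5 fibroblast markers (Pdgfrb), while all 6 epithelial markers were at least 2-fold lower. The part of such cells in the immune-like values was not tested. Cluster 2 was held by DOX (1369 against 10 nuclei) and basal markers led it. Their median log2 ratio over the other nuclei was 0.56, with 1 of 6 at least 2-fold higher, beside 0.43 for epithelial markers. Clusters 1 and 6 were held by EtOH, with 1621 against 56 and 521 against 3 nuclei, and luminal progenitor and hormone-sensing luminal markers led them. Cluster 5 was hormone-sensing luminal-like (96 DOX and 501 EtOH nuclei), cluster 7 was basal-like (220 and 146), and cluster 8 held 45 and 22 nuclei of low depth. The name of cluster 7 rests on a narrow lead over fibroblast markers. Its median log2 ratio over the other nuclei was 0.86 for basal and 0.74 for fibroblast markers, with 3 of 6 and 2 of 5 at least 2-fold higher. A cluster drawn almost wholly from 1 library cannot be told apart from that library, so clusters 1, 2 and 6 carry no cell type name.

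Promoter sequences are shown for 9 genes that carry the comparisons. Each covers 300 bases, 250 before and 50 from the start of transcription on, in the direction of the gene, taken from RefSeq (GRCm38.p6), and each lies inside a shared region. Of the 46 genes 33 matched a promoter in that table. Capitals mark matches, on either strand, to the motifs kappaB (GGGAN followed by TTTCC), AP-1 (TGANTCA) and PU.1 (GAGGAAGT). The first sequences belong to Ccl3 and Ccl12, ligands open almost only in immune-like nuclei, to Ccl9, which was open there and in other clusters, and to Ccl28, a mucosal ligand whose promoter was less open in DOX. None of the motifs matched in the first pair, and AP-1 matched once in each of the others, 53 bases before the start of Ccl9 and 20 bases after that of Ccl28.
Ccl3, chr11:83649329-83649628, minus strand: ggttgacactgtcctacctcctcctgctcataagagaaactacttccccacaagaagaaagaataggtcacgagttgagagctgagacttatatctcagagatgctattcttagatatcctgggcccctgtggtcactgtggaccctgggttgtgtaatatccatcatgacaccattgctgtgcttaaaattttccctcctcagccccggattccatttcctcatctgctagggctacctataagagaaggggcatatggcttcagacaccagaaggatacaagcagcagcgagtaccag
Ccl12, chr11:82101595-82101894, plus strand: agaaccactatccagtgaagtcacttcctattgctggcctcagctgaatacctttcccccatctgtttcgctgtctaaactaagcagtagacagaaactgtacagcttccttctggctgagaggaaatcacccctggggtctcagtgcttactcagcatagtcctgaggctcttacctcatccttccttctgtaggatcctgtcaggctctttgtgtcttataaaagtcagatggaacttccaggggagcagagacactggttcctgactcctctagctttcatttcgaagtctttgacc
Ccl9, chr11:83578587-83578886, minus strand: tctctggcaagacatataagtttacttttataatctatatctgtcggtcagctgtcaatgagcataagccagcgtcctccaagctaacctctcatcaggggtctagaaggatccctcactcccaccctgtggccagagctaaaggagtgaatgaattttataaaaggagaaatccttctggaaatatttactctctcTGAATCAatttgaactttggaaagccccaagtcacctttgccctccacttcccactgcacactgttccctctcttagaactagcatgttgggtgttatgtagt
Ccl28, chr13:119623569-119623868, plus strand: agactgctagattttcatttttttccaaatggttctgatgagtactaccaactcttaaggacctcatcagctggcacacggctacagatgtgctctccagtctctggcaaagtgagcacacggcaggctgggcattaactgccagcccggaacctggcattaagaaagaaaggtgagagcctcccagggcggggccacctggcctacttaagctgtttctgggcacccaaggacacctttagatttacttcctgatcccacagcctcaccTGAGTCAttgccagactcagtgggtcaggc
The next are Cxcl1, Cxcl2 and Cxcl3, neutrophil attractants in tandem on chromosome 5, each with 1 kappaB match, and their neighbour Cxcl15, with none of these motifs. The matches stand 71, 97 and 73 bases before the starts.
Cxcl1, chr5:90890995-90891294, plus strand: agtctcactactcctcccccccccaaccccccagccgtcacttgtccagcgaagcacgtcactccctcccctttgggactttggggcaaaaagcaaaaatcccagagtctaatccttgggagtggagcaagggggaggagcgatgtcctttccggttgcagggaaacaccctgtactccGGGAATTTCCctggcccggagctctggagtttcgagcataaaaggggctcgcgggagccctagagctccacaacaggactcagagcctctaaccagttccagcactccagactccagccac
Cxcl2, chr5:90903649-90903948, plus strand: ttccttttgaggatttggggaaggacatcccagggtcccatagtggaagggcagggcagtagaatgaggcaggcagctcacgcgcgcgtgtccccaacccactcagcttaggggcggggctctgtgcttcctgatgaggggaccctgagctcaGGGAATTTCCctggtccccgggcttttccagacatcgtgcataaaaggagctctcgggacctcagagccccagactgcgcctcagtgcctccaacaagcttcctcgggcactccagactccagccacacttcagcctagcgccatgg
Cxcl3, chr5:90785851-90786150, plus strand: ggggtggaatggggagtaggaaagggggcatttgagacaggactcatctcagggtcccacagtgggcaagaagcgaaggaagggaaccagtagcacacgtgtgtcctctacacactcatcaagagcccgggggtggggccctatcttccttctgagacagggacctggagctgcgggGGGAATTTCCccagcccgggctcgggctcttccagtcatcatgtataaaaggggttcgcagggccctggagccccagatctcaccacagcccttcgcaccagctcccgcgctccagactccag
Cxcl15, chr5:90794284-90794583, plus strand: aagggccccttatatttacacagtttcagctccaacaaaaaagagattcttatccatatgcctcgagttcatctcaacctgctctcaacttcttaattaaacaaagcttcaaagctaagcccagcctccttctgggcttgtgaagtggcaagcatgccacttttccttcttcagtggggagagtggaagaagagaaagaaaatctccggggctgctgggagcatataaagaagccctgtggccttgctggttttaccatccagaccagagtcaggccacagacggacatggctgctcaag
The last is Cxcr3, the receptor that was more open in DOX outside the immune-like clusters, with a PU.1 match on the opposite strand that begins 16 bases before the start.
Cxcr3, chrX:101734098-101734397, minus strand: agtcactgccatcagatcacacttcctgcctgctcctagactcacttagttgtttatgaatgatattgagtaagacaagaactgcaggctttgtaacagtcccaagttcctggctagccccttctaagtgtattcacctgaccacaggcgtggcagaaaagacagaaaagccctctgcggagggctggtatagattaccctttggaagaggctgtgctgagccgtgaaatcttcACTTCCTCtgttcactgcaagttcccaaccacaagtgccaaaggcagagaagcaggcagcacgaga
Counted per gene, kappaB letters were in the promoters of 4 of the 33 chemokine genes (12.1%: Ccr3, Cxcl1, Cxcl2 and Cxcl3) and of 126 of all 27025 genes compared (0.466%). That RefSeq set is larger than the 21938 protein-coding genes, so it is not the set the members were drawn from. Cxcl1, Cxcl2 and Cxcl3 are close relatives of each other, so their matches are not independent. AP-1 letters were in 6 of 33 (18.2%) against 8.97% of all genes. PU.1 letters were in 1 of 33 (3.03%) against 3.69%, and in 0 of the 14 matched genes that were more open in immune-like nuclei. The GATA letters AGATAA were in 7 of 33 (21.2%) against 12.7%, and the interferon response letters (TTTC, any 2 bases, TTTC) in 3 of 33 (9.09%: Ccl19, Cxcl10 and Cxcl14) against 3.99%. A match of letters is a description of the sequence and not a site.

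Over all nuclei, 11 of the 38 genes were at least 2-fold more open in DOX (28.9%, against 3.26% of 17813 genes compared) and 1 was at least 2-fold less open (2.63%, against 1.63%). The 11 were the ligands Ccl3, Ccl4, Ccl6, Ccl9, Ccl12, Ccl17, Ccl24 and Cxcl2 and the receptors Ccr1, Ccr2 and Cxcr3. The 1 was the ligand Cxcl15. The median log2 ratio of DOX over EtOH was 0.36 over the 38 genes and 0.06 over all genes compared. The interval of the ratio lay above 0 for 26 genes and below 0 for 8. The same shares over all genes were not computed, so these counts cannot be read as particular to chemokine genes.

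**Figure D1:**
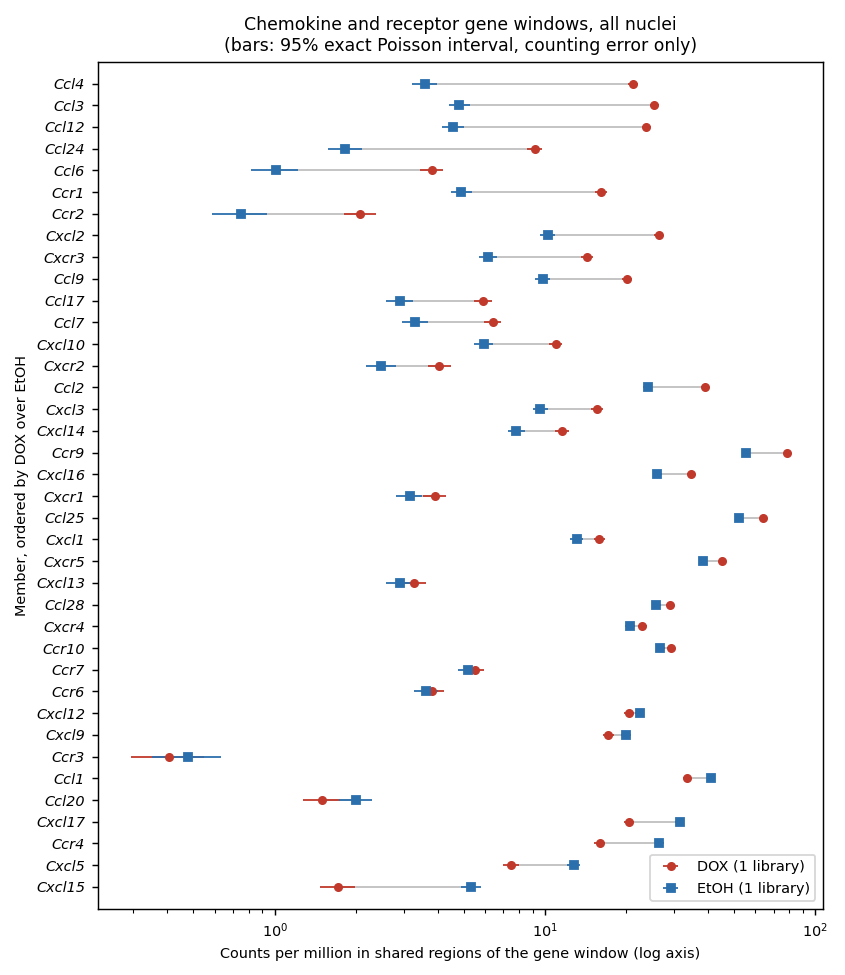
Level of each of the 38 chemokine genes with a shared region, in CPM on a log axis, in the DOX and the EtOH library over all nuclei, with exact Poisson 95% intervals, ordered by the ratio of DOX over EtOH. Ccl4, Ccl3, Ccl12 and Ccl24 at the top are more than 5-fold higher in DOX, Cxcl15 at the bottom is lower, and the genes between Cxcl1 and Cxcl12 differ little.

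The CC ligands beside Ccl3 on chromosome 11, which bring in monocytes and other leukocytes, were the role group whose measured genes were all at least 2-fold more open in DOX, 4 of 4. Ccl3, or macrophage inflammatory protein 1 alpha, took 25.3 CPM in DOX and 4.81 CPM in EtOH, a log2 ratio of 2.39 (2.25 to 2.54). Its neighbour Ccl4 took 21.2 and 3.59 CPM, with the highest ratio of the 38 genes, 2.56 (2.40 to 2.72). Ccl6, a ligand of Ccr1 made by myeloid cells, was open at a lower level, 3.82 against 1.01 CPM (log2 1.92, 1.60 to 2.25). The 3 genes had narrow intervals far from 0. Ccl9, also a ligand of Ccr1, differed less, with 20.1 CPM in DOX and 9.82 CPM in EtOH (log2 1.03, 0.93 to 1.14). Ccl5, a T-cell product that belongs here, had no shared region and 2 regions called only in DOX, with 262 and 158 counts.

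Of the CC ligands beside Ccl2, which bring in monocytes through Ccr2 or eosinophils through Ccr3, 1 of 4 measured genes was at least 2-fold apart. This was Ccl12, a monocyte attractant of the mouse, with 23.7 CPM in DOX and 4.58 CPM in EtOH (log2 2.37, 2.23 to 2.52). Ccl2 itself was among the genes of highest level per kb of region and took 39.1 against 23.9 CPM (log2 0.71, 0.63 to 0.78), in regions it shares with the gene Gm17268. Ccl7, its close relative, had a ratio of 0.95 (0.76 to 1.15), short of 2-fold. The intervals of these 3 lay above 0. Ccl1, a ligand of Ccr8, was lower at -0.29 (-0.35 to -0.22), summed over 13 regions in a window of 131 kb. Ccl8 and Ccl11 had no shared region and 1 region each called only in DOX, with 209 and 110 counts.

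Among the remaining CC ligands 2 of 5 measured genes were at least 2-fold more open in DOX. Ccl24, an eosinophil attractant of macrophages, took 9.15 CPM in DOX and 1.82 CPM in EtOH (log2 2.33, 2.10 to 2.56). Ccl17, a ligand of Ccr4 made by dendritic cells and macrophages, took 5.90 and 2.90 CPM (log2 1.02, 0.82 to 1.23). Summed over their regions, the ligands made mainly by epithelia differed little, though single regions of Ccl25 and Ccl28 went apart in both directions, as given below. Ccl25, the thymic and gut ligand of Ccr9, was among the genes of highest level per kb, 63.9 against 52.2 CPM (log2 0.29, 0.24 to 0.34), in regions it shares in part with Elavl1. Ccl28, which brings antibody-secreting cells into the lactating gland, had a ratio of 0.17 (0.09 to 0.25), and Ccl20, the ligand of Ccr6, had -0.41 (-0.72 to -0.11). Ccl22, the other ligand of Ccr4, had 1 region called only in DOX (494 counts), Ccl26 1 called only in EtOH (273 counts), and Ccl19 none.

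The 5 CXC ligands that attract neutrophils went apart. Cxcl2 took 26.3 CPM in DOX and 10.2 CPM in EtOH (log2 1.36, 1.26 to 1.47), and was the second of all 38 genes in level per kb. Cxcl15, or lungkine, first described in lung epithelium, took 1.72 against 5.34 CPM (log2 -1.64, -1.89 to -1.39) and was the 1 gene at least 2-fold lower in DOX. Cxcl15 lies between Cxcl3 and Cxcl1 on the same strand. Its total was lower in DOX, while those of these neighbours were higher. Cxcl3 had a ratio of 0.70 (0.59 to 0.82). Cxcl1, among the genes of highest level per kb, took 15.9 and 13.1 CPM (log2 0.28, 0.17 to 0.38). Cxcl5, an epithelial neutrophil attractant, stood lower in DOX at -0.77 (-0.90 to -0.64).

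No gene of the other CXC ligands was 2-fold apart. Of the interferon-inducible ligands of Cxcr3, Cxcl10 stood higher in DOX at 0.88 (0.74 to 1.03), in a region it shares with Art3, and Cxcl9 lower at -0.22 (-0.31 to -0.13). Cxcl12, the stromal ligand of Cxcr4, had a ratio of -0.13 (-0.22 to -0.05), and Cxcl13, the B-cell attractant, one of 0.17 (-0.06 to 0.40), whose interval holds 0. Cxcl14, a ligand of epithelia and fibroblasts, stood at 0.56 (0.43 to 0.69) and the membrane-bound Cxcl16 at 0.41 (0.34 to 0.48). Cxcl17, a mucosal ligand, was lower at -0.62 (-0.70 to -0.54).

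Among the CC receptors 2 of 8 measured genes were at least 2-fold more open in DOX. Ccr1, a receptor of Ccl3 and Ccl9 on myeloid cells, took 16.1 CPM in DOX and 4.89 CPM in EtOH (log2 1.72, 1.57 to 1.87). Ccr2, the receptor of Ccl2 on monocytes, was open at a low level, 2.07 against 0.747 CPM (log2 1.47, 1.09 to 1.87). Ccr1 and Ccr2 both lie on chromosome 9. Ccr4, a receptor of T cells, was the 1 CC receptor whose interval lay below 0, at -0.73 (-0.82 to -0.64). Ccr9, a receptor of gut-homing lymphocytes in a window of 108 kb shared in part with Slc6a20a and Lztfl1, stood at 0.51 (0.46 to 0.56). Ccr10, the receptor of Ccl28, whose regions are shared in part with Cntnap1, stood at 0.13 (0.06 to 0.21). The lymphocyte and dendritic cell receptors Ccr6 and Ccr7 stood at 0.08 (-0.13 to 0.28) and 0.08 (-0.10 to 0.25), and the eosinophil receptor Ccr3 at -0.24 (-0.87 to 0.38) on 86 and 96 counts.

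Of the CXC receptors 1 of 5 measured genes was at least 2-fold more open in DOX. This was Cxcr3, known from activated T cells, with 14.3 CPM in DOX and 6.15 CPM in EtOH (log2 1.22, 1.08 to 1.36). Cxcr4, the receptor of Cxcl12, had the highest level per kb of the 38 genes, 24.2 CPM per kb, and nearly the same level in both libraries, 22.9 and 20.6 CPM (log2 0.15, 0.06 to 0.23). The neutrophil receptors Cxcr1 and Cxcr2 stood at 0.31 (0.10 to 0.53) and 0.72 (0.49 to 0.95) and the B-cell receptor Cxcr5 at 0.23 (0.17 to 0.29). Cxcr6, the receptor of Cxcl16, had 2 regions called only in DOX.

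The nuclei that supplied these counts were examined next. In both libraries 18 of 37 genes with enough counts were at least 2-fold more open in immune-like than in other nuclei (48.6%, against 7.99% of 17731 genes), and 6 were at least 2-fold less open (16.2%, against 18.8%). The 18 included 10 of the 11 genes more open in DOX, the exception being Cxcr3. The other 8 were Ccl2, Ccl7, Cxcl3, Cxcl10, Cxcl14, Ccr9, Cxcr1 and Cxcr2. The ratio of DOX over EtOH over all nuclei was above 1 for all 18. The 6 less open in immune-like nuclei were Ccl20, Cxcl5, Cxcl9, Cxcl13, Cxcl15 and Cxcl17, and 5 of them had a ratio below 1, the exception being Cxcl13. Immune-like nuclei held a larger part of the DOX than of the EtOH counts, so a gene more open in them tends to a higher ratio over all nuclei. The overlap with the 11 genes and the directions of the 18 and the 6 thus follow in part from how the genes were picked. The shares over all genes were not computed for these counts.

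Immune-like nuclei held 39% of all DOX counts and 7.11% of all EtOH counts in shared regions, and the share of a gene can be read beside these. For Ccl3 they supplied 98.8% of the DOX counts and 93.8% of the EtOH counts, the highest shares of the 38 genes in both libraries. Ccl24, Ccl4 and Ccl12 followed with 98.4%, 98.1% and 95.9% in DOX and 92.1%, 86.7% and 88.6% in EtOH. Over the 10 genes the DOX shares ran from 73.6% (Ccr1) to 98.8% (Ccl3). In EtOH the same genes ran from 25.8% to 93.8%, and Ccl17, Ccr2, Ccl9, Ccr1 and Cxcl2 lay between 25.8% and 35.3%. The genes less open in immune-like nuclei were the mirror of this. Cxcl13 took 2.73% of its DOX and 0.344% of its EtOH counts from immune-like nuclei. Cxcl9 took 3.77% and 0.574%. Ccl20 took 2.83% in DOX and 0 of 400 counts in EtOH, which after halving to 200 allows a share of up to 1.5%.

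**Figure D2:**
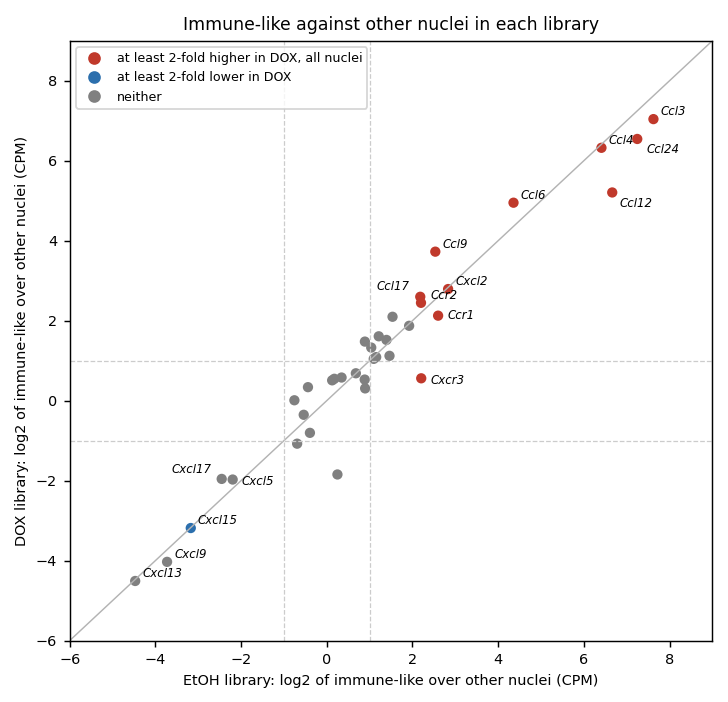
Log2 ratio of the CPM of immune-like over other nuclei in the EtOH library (x axis) and the DOX library (y axis), 1 point per chemokine gene, coloured by its call over all nuclei. Ccl3, Ccl4, Ccl12 and Ccl24 lie between 5.21 and 7.62 in both libraries, Cxcl9 and Cxcl13 between -4.51 and -3.73, and Cxcr3 is the coloured point farthest below the diagonal.

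Outside the immune-like clusters 2 of 37 genes were at least 2-fold more open in DOX (5.41%, against 0.829% of 17739 genes), Ccl12 and Cxcr3, and 2 were at least 2-fold less open (5.41%, against 0.767%), Ccl9 and Cxcl15. The median log2 ratio was 0.08 against -0.00 over all genes. Of the 11 genes more open in DOX over all nuclei, 10 had a smaller ratio here. The 11 were picked by their ratio over all nuclei, and the same share over all genes was not computed. Ccl3 went from 2.39 to 0.60 (-0.20 to 1.35), on 0.487 CPM in DOX and 0.322 CPM in EtOH. Cxcl2 went from 1.36 to 0.16 (-0.01 to 0.33). Ccr1 took 6.96 against 3.6 CPM (log2 0.95, 0.75 to 1.16), just short of 2-fold. With a score in place of the clusters, by which nuclei above 141 CPM summed over Ptprc, Csf1r and C1qb are set aside, 6 genes were more open in DOX (Ccl3, Ccl4 and Ccl24 at low levels, Ccl12, Ccr1 and Cxcr3) and 1 less open (Cxcl15).

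Ccl12 stood at 1.58 CPM in DOX and 0.563 CPM in EtOH outside the immune-like clusters (log2 1.48, 1.00 to 2.01), on 309 counts. These levels were 2.71% and 0.988% of its levels in immune-like nuclei. Among the 8 immune markers measured in the same nuclei, C1qb stood at 1.37% and 0.552% of its immune level with a log2 ratio of 1.23, and Tyrobp at 1.73% and 0.668% with 1.35. The other 6 markers had ratios from -0.26 to 0.79. The part in the value of Ccl12 of whatever moved C1qb and Tyrobp was not tested.

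Cxcr3 was the 1 of the 11 genes more open in DOX whose ratio was not smaller outside the immune-like clusters. There it took 12.1 CPM in DOX and 4.90 CPM in EtOH (log2 1.30, 1.14 to 1.47), on 2478 counts, a level in DOX that was 67.9% of that in immune-like nuclei. In immune-like nuclei it took 17.8 and 22.6 CPM (log2 -0.34, -0.59 to -0.09), the other way. Its 1 shared region is the promoter, chrX:101733574-101734489, whose sequence with the PU.1 letters is given above. By cluster, it took 13.3 CPM in the DOX nuclei of cluster 2, 7.53 and 4.40 CPM in the DOX and EtOH nuclei of cluster 1, 8.74 and 6.53 in cluster 7, and 5.4 and 5.86 in cluster 5. The DOX nuclei of cluster 2 thus stood highest outside the immune-like clusters, apart from the 45 nuclei of low depth in cluster 8 (14.0 CPM). Cluster 2 was held by DOX, and 1 of 6 basal markers was at least 2-fold higher there than in the other nuclei.

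Ccl9 went the other way outside the immune-like clusters than over all nuclei, with 3.48 CPM in DOX and 7.33 CPM in EtOH (log2 -1.07, -1.30 to -0.86). With the marker score in place of the clusters the ratio was -0.75, short of 2-fold. Its 3 regions did not share this. At the promoter region chr11:83578032-83579830, which holds the AP-1 letters, the log2 ratio outside was -2.07 (-2.46 to -1.70), while a region inside the gene, chr11:83576800-83577683, stood at 0.00 (-0.61 to 0.60). The region upstream, chr11:83580527-83581487, stood at -0.28 (-0.63 to 0.05). Among the other clusters, EtOH nuclei took 15.2 CPM in cluster 7, 12.6 in cluster 5, 8.70 in cluster 6 and 4.13 in cluster 1, and DOX nuclei took 5.92 in cluster 7, 8.17 in cluster 5 and 2.74 in cluster 2.

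Cxcl15 stood lower in DOX in the same nuclei, 2.63 against 5.70 CPM (log2 -1.11, -1.38 to -0.87). It was most open in clusters 5 and 6, both led by hormone-sensing luminal markers, with 10.5 CPM in DOX and 12.4 CPM in EtOH in cluster 5 and 10.4 CPM in the EtOH nuclei of cluster 6, against 1.95 CPM in the EtOH nuclei of cluster 1 and 1.47 CPM in the DOX nuclei of cluster 2. Within cluster 5, the hormone-sensing luminal-like cluster with nuclei of both libraries, its levels were thus close. The libraries held 96 and 501 nuclei of that cluster.

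Other ligands less open in immune-like nuclei differed between the other clusters. Cxcl17 took 48.6 and 53.3 CPM in the DOX and EtOH nuclei of cluster 5 and 53.6 CPM in the EtOH nuclei of cluster 6, against 25.8 CPM in the DOX nuclei of cluster 2 and 20.1 CPM in the EtOH nuclei of cluster 1. Cxcl9 was highest in the basal-like cluster 7 among clusters with at least 10 nuclei in each library, at 37.8 and 35.0 CPM, and lower in cluster 1 at 11.7 and 14.4 CPM. Cxcl13 stood at 18.7 CPM in DOX and 8.83 CPM in EtOH in cluster 5 and at 11.6 against 0.373 CPM in cluster 7. At a finer resolution the basal-like cluster took 3.73 and 0.393 CPM, and a cluster of 164 DOX and 2 EtOH nuclei led by hormone-sensing markers took 15.5 CPM in DOX. Outside the immune-like clusters as a whole the ratio of Cxcl13 was 0.75 (0.52 to 0.98) and that of Cxcl1 0.57 (0.46 to 0.68), both short of 2-fold.

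**Figure D3:**
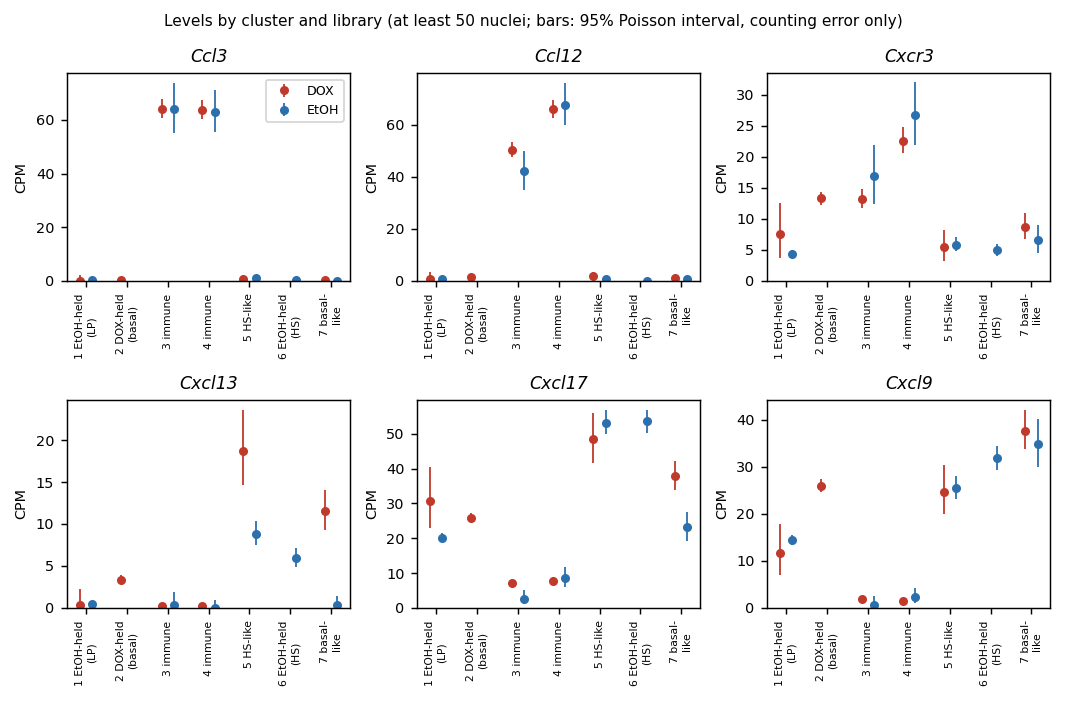
Level in CPM of 6 chemokine genes in clusters 1 to 7, for each library with at least 50 nuclei in the cluster, with exact Poisson 95% intervals. LP and HS in the labels mean luminal progenitor and hormone-sensing luminal. Ccl3 and Ccl12 stand at 42.2 to 67.8 in the immune-like clusters of both libraries and near 0 elsewhere, Cxcr3 is also open at 13.3 in the DOX nuclei of cluster 2, and Cxcl17 and Cxcl9 are lowest in the immune-like clusters, where Cxcl13 is near 0, as it is in cluster 1 and in the EtOH nuclei of cluster 7.

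Within the immune-like clusters 0 of 34 genes were 2-fold more open in DOX (against 0.731% of 16556 genes) and 0 were 2-fold less open (against 0.217%). The log2 ratios ran from -0.35 (Cxcr4) to 0.68 (Ccr6), with a median of 0.11. Ccl3 took 64.0 CPM in the DOX and 63.5 CPM in the EtOH immune-like nuclei (log2 0.01, -0.13 to 0.16). Ccl12 took 58.1 and 57.0 CPM (log2 0.03, -0.12 to 0.18). Cxcl2 took 55.0 and 50.7 CPM (log2 0.12, -0.04 to 0.28). Ccl24 stood at -0.03 (-0.27 to 0.21), and Cxcl15 had too few counts here. Of the 11, Ccr2 had the highest ratio here, 0.59 (-0.06 to 1.40), with an interval that holds 0, and Ccr1 took 30.4 against 21.8 CPM (log2 0.48, 0.24 to 0.73). Ccl4 stood at 0.28 (0.11 to 0.46), and Cxcr4 took 28.1 against 35.9 CPM (log2 -0.35, -0.55 to -0.15). The ratio outside and that within the immune-like clusters had opposite signs, with both intervals off 0, for 4 of 33 genes with enough counts in both (12.1%, against 5.23% of 16484 genes), Cxcl12, Cxcl16, Cxcr3 and Cxcr5. The 8 immune markers in these nuclei had ratios from -0.08 to 0.15, and from 0.77 to 2.35 over all nuclei.

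**Figure D4:**
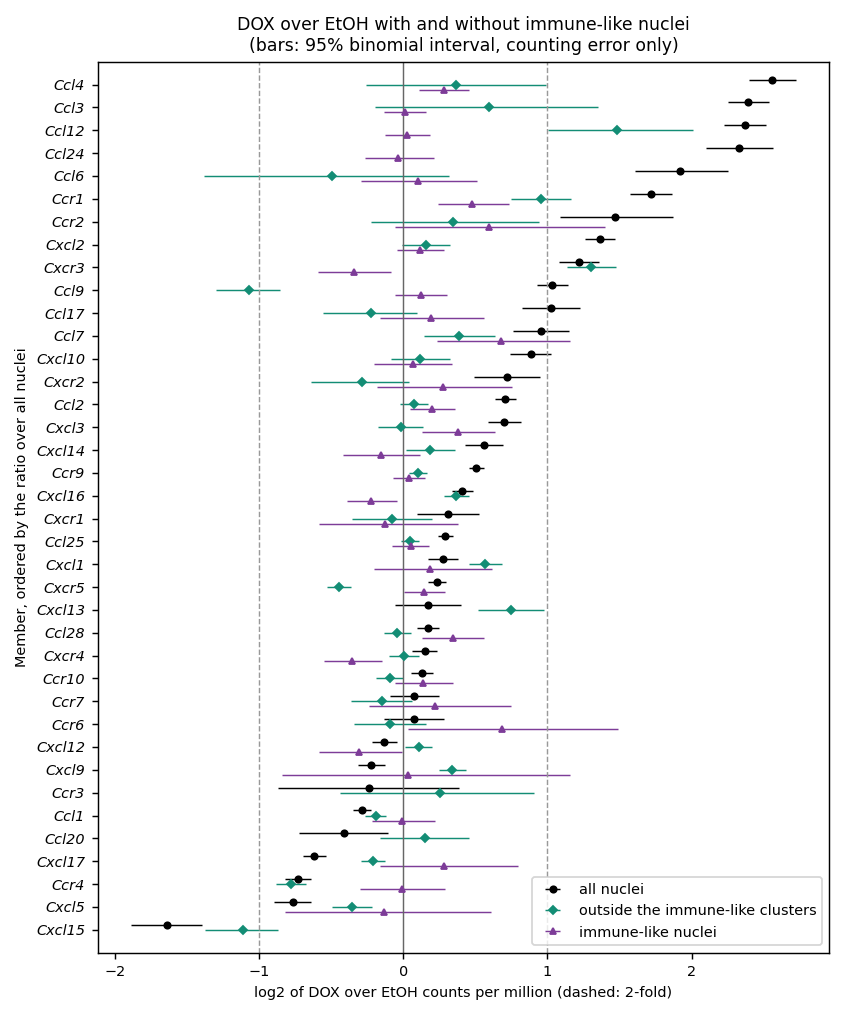
Log2 ratio of DOX over EtOH of each chemokine gene over all nuclei, outside the immune-like clusters and within them, with 95% counting intervals. Over all nuclei 11 genes are at least 2-fold higher, outside the immune-like clusters Ccl12 and Cxcr3 are, and within them none is.

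The sum over a gene hid regions that went apart. Of 104 shared regions of the 38 genes, 26 were at least 2-fold more open in DOX (against 13.0% of 174772 regions) and 10 at least 2-fold less open (against 13.4%), and the median log2 ratio was 0.21 against -0.13. Immune-like nuclei supplied over 70% of the DOX counts in 24 of the 26 (against 81.2% of all regions more open in DOX), with a median of 94.7%. In the 10 they supplied at most 3.54% of the EtOH counts. Ccl1, Ccl25, Ccl28 and Cxcr5, 4 of the 19 genes with several regions, held regions 2-fold apart in both directions, a share not computed over all genes.

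**Figure D5:**
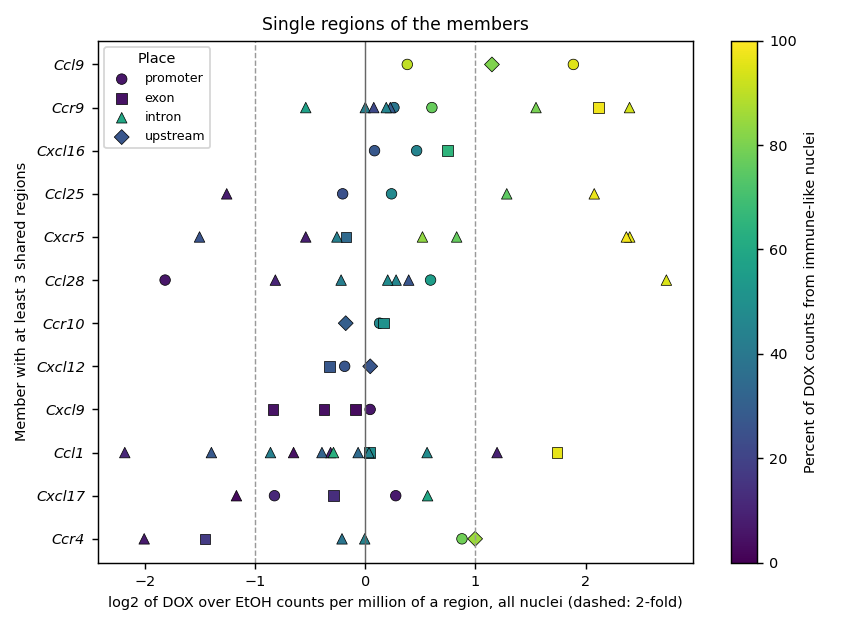
Log2 ratio of DOX over EtOH of every shared region of the genes with at least 3 of them, coloured by the percentage of its DOX counts from immune-like nuclei. Regions at least 2-fold higher are mostly of a high percentage, regions at least 2-fold lower of a low one, and Ccl28 and Cxcr5 hold both kinds.

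At Ccl28 the promoter region chr13:119623353-119624251, whose sequence is given above, held 135 counts in DOX and 450 in EtOH (log2 -1.82, -2.25 to -1.43), and -1.29 (-1.73 to -0.89) outside the immune-like clusters. An intron region, chr13:119639051-119639868, held 669 and 95 counts (log2 2.73, 2.30 to 3.22), with 94.3% of its DOX counts from immune-like nuclei. The near-equal total of this gene thus included regions that went opposite ways. At Cxcr5, intron regions stood at 2.40 and 2.37 with 96.0% and 98.4% of DOX counts from immune-like nuclei, and another intron region at -1.51 with 26.0%. At Ccl25, introns held ratios of 2.08 and -1.26.

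Of the 26 regions more open in DOX, 4 were also 2-fold more open outside the immune-like clusters with enough counts. They belong to Ccr1, Ccl12, Ccl1 and Cxcr3, and the same share over all regions was not computed. The Ccr1 promoter, chr9:123968233-123969166, held 2045 counts in DOX and 323 in EtOH (log2 2.58), and 1.51 (1.04 to 2.0) outside. An intron region of Ccl1, chr11:82184282-82185039, held 730 and 301 counts (log2 1.2), and 1.68 (1.39 to 1.97) outside. Ccl1 therefore held a region more open in the other nuclei of DOX that its gene total did not show. Introns follow the GENCODE gene bodies. This region lies upstream of the RefSeq promoter of Ccl1, chr11:82179763-82180062 on the minus strand.

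Of the 10 regions less open in DOX, 7 were also 2-fold less open outside the immune-like clusters. The same share over all regions was not computed, so this count cannot be read as particular to chemokine genes. In Ccr4 the intron region chr9:114502511-114503439 held 617 counts in DOX and 2346 in EtOH (log2 -2.01, -2.2 to -1.83), and -1.5 (-1.69 to -1.31) outside. In Ccl1 the intron region chr11:82198843-82199759 held 236 and 1014 counts (log2 -2.19, -2.49 to -1.89), and -1.73 (-2.05 to -1.43) outside. Both regions lie upstream of the RefSeq promoter of their gene, which for Ccr4 is chr9:114496495-114496794 on the minus strand. The others were the promoters of Cxcl15 and Ccl28, an intron of Cxcr5, an exon of Ccr4 and another intron of Ccl1. The 3 that were short of 2-fold outside belong to Cxcl5, Cxcl17 and Ccl25.

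Regions with a peak in 1 library alone have no count in the other, so no ratio can be given. In the windows of the 46 genes 40 of 165 merged regions were called only in DOX (24.2%, against 17.0% of all merged regions) and 21 only in EtOH (12.7%, against 19.4%). Immune-like nuclei supplied over 50% of the counts in 33 of the 40 DOX regions (against 67.2% of all such regions, median of the 40 85.7%) and in 0 of the 21 EtOH regions (against 0.0654%, median 2.54%, at most 25.3%). At Ccl5, Ccl8, Ccl22 and Cxcr6, genes with no shared region, they supplied 80.9%, 75.1%, 91.1% and 92.0% of the counts of the largest DOX region. At Ccl11, an eosinophil attractant of stromal cells, they supplied 12.7%. The largest of all were a Cxcr4 region called only in DOX (2359 counts, 78.6%) and a Cxcr5 region called only in EtOH (1496 counts, 2.54%).

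Other genes of the same system were set beside these. Of 9 measured chemokine genes outside the naming rule, 3 were at least 2-fold more open in DOX over all nuclei (against 3.26% of all genes), the decoy receptor Ccrl2 (log2 1.34) and the platelet and macrophage ligands Pf4 (2.25) and Ppbp (1.00), 0 were less open, and the median was 0.26. Of 18 genes that carry the signal of the receptors, 2 were more open, Rac2 (1.97), a leukocyte GTPase, and Pik3r5 (1.04), a regulator of PI3-kinase gamma, with a median of 0.37. Of 11 genes of NF-kappaB factors, which bind kappaB sites, and of their regulators, 0 were 2-fold apart, with a median of 0.33. Outside the immune-like clusters 0 genes of the 3 lists were 2-fold more open (against 0.829% of all genes), and 1 was less open (against 0.767%), Rgs1 (-1.11), a brake on receptor signalling. In immune-like nuclei no gene of the 3 lists was 2-fold apart. The atypical receptors Ackr3 and Ackr4 were less open in immune-like than in other nuclei in both libraries, at -2.65 and -4.26 in DOX and -2.14 and -4.82 in EtOH.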

How the data were processed

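The authors deposited, per library, raw counts of each peak in each cell barcode beside lists of the peaks and barcodes. Cell Ranger ATAC 2.0.0 had made them, per the file headers, with peaks called in each library alone, and the labels name mm10. In DOX 13.8% and in EtOH 14.3% of the nonzero counts were odd, since counts are transposition ends, so every interval was computed on counts divided by 2. None of the 223092 and 229685 peaks on 21 chromosomes ended beyond a GRCm38 chromosome (0 peaks), and the 69 and 61 peaks on scaffolds (0.135% and 0.146% of counts) were left out.

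Peaks overlapping by at least 1 bp were merged. Counts of regions with peaks of both libraries were scaled to CPM, and those of a region with a peak of 1 library were not taken as 0 in the other. A gene was called apart at 2-fold with at least 100 counts, since no test is possible. CPM carry exact Poisson, ratios conditional binomial and shares Clopper-Pearson intervals.

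Nuclei were clustered on LSI components 2 to 30 with 15 neighbours and the Leiden algorithm at a resolution of 0.5, without the chemokine regions. Clusters with at least 95% of 1 library were left without a cell type name. No doublet caller was run, and the deepest 5% of nuclei were left out as an alternative. Of the genes with such a symbol 1, and of the markers 1, are not reported here. The members, gene lists and markers were chosen with earlier results of these data known. Levels were to be given for genes at least 2-fold apart and for the 6 of highest level per kb, and the ratios of the other measured members were added after their values were seen. Alternatives were median scaling, each library's own peaks, promoters within 1 kb of a start, regions of no other gene, depth and count minimums, thinning to 10000 counts per nucleus, a finer clustering and a marker score. Python 3.11.15 was used with numpy 2.4.6, scipy 1.17.1, pandas 2.3.3, scikit-learn 1.9.0, scanpy 1.11.5, leidenalg 0.10.2 and matplotlib 3.10.9.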

Additional observations from a re-analysis of the deposited data

Results flagged for a closer look

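For 4 of 33 genes with enough counts in both (12.1%, against 5.23% of 16484 genes) the ratio of DOX over EtOH had opposite signs outside and within the immune-like clusters, with both intervals off 0. The difference was not tested, since each group has 1 library. For the receptor Cxcr3 the log2 ratio was 1.30 outside and -0.34 within. For the membrane-bound ligand Cxcl16 it was 0.37 outside and -0.22 within. Cxcl12, the ligand of Cxcr4, stood at 0.11 outside and -0.30 within. The B-cell receptor Cxcr5 went the other way round, at -0.44 outside and 0.14 within.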

How the results depend on the processing

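No paired analysis was possible because both groups consist of a single library. No setting stands in for replicates. Over all nuclei the number of genes at least 2-fold more open in DOX ran from 10 to 13 over all alternatives, and the number less open was 1 under each. The median log2 ratio of the members moved from 0.36 to 0.51 with each library's own peaks, 0.56 with promoters alone and 0.56 without regions shared with other genes, and ran from 0.31 to 0.49 under the others. Scaling to the median of all shared regions shifts every ratio, since that median is -0.13.

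Outside the immune-like clusters the marker score in place of the clusters moved the count of genes more open from 2 to 6 (Ccl3, Ccl4, Ccl12, Ccl24, Ccr1 and Cxcr3) and the count less open from 2 to 1 (Cxcl15), with Ccl9 at -0.75. That score called 1262 DOX and 338 EtOH nuclei immune, 1201 and 257 of them in the immune-like clusters. The counts of genes more and less open in immune-like nuclei were 17 or 18 and 6. Of single values, 200 of the ratios over all nuclei moved by less than their counting interval and 56 by more, and outside the immune-like clusters 140 and 5. Of the shares from immune-like nuclei, 237 moved by less than their interval and 61 by more. Depth limits Ccl24 outside the immune-like clusters (61 counts) and Ccl20, Ccr3, Cxcl13 and Cxcl15 within them.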
